A study of Mus musculus with 6 samples.

Results

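The globin genes are described here in 2 classes of neuron from the medial mammillary nucleus, a cell group of the posterior hypothalamus. The 6 genes were taken by name from a table of 55414 mouse genes: the alpha-globin copies Hba-a1 and Hba-a2, the beta-globin copies Hbb-bs and Hbb-bt, neuroglobin (Ngb) and cytoglobin (Cygb). All 6 names were found. The set was selected on FPKM values of these same libraries, compared between the classes, so its differences between the classes are a description, with no test. FPKM, the unit the authors deposited, counts sequenced fragments relative to gene length and library depth.

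Neurons of male mice were aspirated with glass electrodes from slices treated with papain. By genotype label, libraries PV 6, PV 7 and PV 8 are PV-positive (PV is the calcium-binding protein parvalbumin) and libraries Drd2 1, Drd2 2 and Drd2 3 are Drd2-positive (the D2 dopamine receptor). No treatment separates the groups. Age, strain, the construct behind the fluorescence and the number of cells and mice per library are unknown here. The libraries within a class are biological replicates according to the series design, and p-values measure the spread between them. Values of a group are always given in the order of its library numbers.

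Globins are heme proteins that bind oxygen and other small gases. Haemoglobin is built from alpha and beta chains and fills red blood cells, and its transcripts have also been found in some neurons. Neuroglobin is a globin of nerve cells with high levels in parts of the hypothalamus, and cytoglobin is a globin of fibroblasts, pericytes and some neurons. In red cell precursors the haemoglobin genes are switched on by the transcription factors Gata1 and Klf1, which bind GATA and CACCC sequences.

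The alpha-globin copies lie on the plus strand of chromosome 11 of mm10, Hba-a1 (ENSMUSG00000069919) at 32283511 to 32284465 and Hba-a2 (ENSMUSG00000069917) at 32296489 to 32297298. The beta-globin copies lie on the minus strand of chromosome 7, Hbb-bs (ENSMUSG00000052305) at 103826534 to 103828096 and Hbb-bt (ENSMUSG00000073940) at 103812524 to 103813996. Positions are those of GENCODE M21. Within each pair the coding sequence differs by 1 base, which bears on how reads can be assigned to a copy. The substitution is C381T over 426 coding bases from Hba-a1 to Hba-a2 and C417T over 441 coding bases from Hbb-bs to Hbb-bt, with positions counted from 1 at the first base of the start codon and the base of the first-named copy written first. The coding stretch around each is shown 5′ to 3′ from the GENCODE M21 transcripts, with the differing base in capitals.
Hba-a1: tgcctctctggaCaaattccttgcc
Hba-a2: tgcctctctggaTaaattccttgcc
Hbb-bs: ggctggagtggcCgctgccctggct
Hbb-bt: ggctggagtggcTgctgccctggct

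The promoters are shown because the haemoglobin genes were high in the same libraries. They are the 250 bases before the RefSeq start in GRCm38.p6, the assembly of mm10, read 5′ to 3′ on the strand of the gene, at chr11:32296242-32296491 (plus) for Hba-a2, chr7:103827929-103828178 (minus) for Hbb-bs and chr7:103813924-103814173 (minus) for Hbb-bt. Capitals mark 4 motifs searched on both strands: the TATA-box core ATATAA, the CCAAT box CCAAT, the CACCC box CACCC and the GATA site GATAAG. In Hbb-bt a CCAAT on each strand lies side by side, giving a longer run of capitals. The GENCODE M21 gene spans given above begin upstream of these RefSeq starts, so part of each window lies inside the annotated gene. The motifs were chosen after the sequences were seen.
Hba-a2: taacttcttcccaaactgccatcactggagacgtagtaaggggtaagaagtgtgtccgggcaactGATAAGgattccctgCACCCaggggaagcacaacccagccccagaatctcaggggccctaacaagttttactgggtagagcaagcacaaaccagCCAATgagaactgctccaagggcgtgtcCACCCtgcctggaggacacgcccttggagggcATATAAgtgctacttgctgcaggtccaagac
Hbb-bs: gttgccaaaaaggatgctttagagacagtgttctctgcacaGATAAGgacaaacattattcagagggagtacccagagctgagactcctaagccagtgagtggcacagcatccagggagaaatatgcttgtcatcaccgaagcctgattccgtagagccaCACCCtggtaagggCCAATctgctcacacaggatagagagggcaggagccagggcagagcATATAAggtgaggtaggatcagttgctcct
Hbb-bt: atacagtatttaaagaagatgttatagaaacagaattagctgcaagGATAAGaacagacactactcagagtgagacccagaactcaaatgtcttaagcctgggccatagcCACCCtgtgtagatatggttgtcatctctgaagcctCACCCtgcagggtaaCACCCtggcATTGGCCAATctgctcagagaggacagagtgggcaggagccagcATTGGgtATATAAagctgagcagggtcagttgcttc

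The Hba-a1 window is offset from that of Hba-a2 and matched it at all 247 aligned bases. Hbb-bs and Hbb-bt matched at 178 of 243 aligned bases. Each of the 4 haemoglobin windows held all 4 motifs, but the motifs were chosen after these sequences were seen, so nothing is read from that. They are counted among the 44 of 32536 distinct mouse promoter windows of this length that held all 4 motifs (0.135%). Taken singly, the motifs occur in 9.09% (ATATAA), 33.8% (CCAAT), 52.1% (CACCC) and 6.42% (GATAAG) of these windows. A match is a sequence match and does not show binding.

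Haemoglobin transcripts were abundant in all 3 PV libraries and near or at 0 in the Drd2 libraries. Neuroglobin was high in Drd2 and low in PV, and cytoglobin was present in all 6 libraries with overlapping levels. In pooled cells, fewer cells expressing a gene and less RNA per cell cannot be told apart.

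Hba-a1, an alpha chain, stood at 1206, 1277 and 467 FPKM in PV and at 0.292, 2.42 and 0 FPKM in Drd2. Its lowest PV library lay above every Drd2 library, and it ranked 19, 26 and 81 by FPKM among all genes of the PV libraries. The difference in mean log2(FPKM + 1), PV minus Drd2, was 9.09 ± 0.60 (SE). Hba-a2, the other alpha copy, stood at 576, 707 and 139 FPKM in PV and at 0.0444, 4.84 and 0 FPKM in Drd2, a log2 difference of 7.72 ± 0.83 (SE). With Drd2 near 0 the size of these differences depends on the pseudocount: with 0.1 and 5 FPKM in place of 1 it was 10.92 and 7.28 for Hba-a1 and 9.85 and 5.96 for Hba-a2. For both alpha copies PV 8 was the lowest PV library and Drd2 2 the highest Drd2 library.

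Hbb-bs, the more abundant beta chain, stood at 1025, 1113 and 136 FPKM in PV. Among the Drd2 libraries it reached 4.25 FPKM in Drd2 2 and was listed at 0 in the others, and the log2 difference was 8.28 ± 0.91 (SE), or 10.58 and 6.47 with pseudocounts of 0.1 and 5 FPKM. Hbb-bt, the minor beta copy, stood at 192, 107 and 0.753 FPKM in PV and was listed at 0 in every Drd2 library, so no fold is given. PV 6 and PV 7 were high for Hbb-bt and PV 8 was near the Drd2 libraries.

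Summed over the 4 genes, haemoglobin came to 2999, 3203 and 743 FPKM in PV and to 0.336, 11.5 and 0 FPKM in Drd2. The groups did not overlap. Reads recovered from the FPKM values numbered 68131, 67496 and 16354 in PV (0.248%, 0.249% and 0.0617% of recovered reads) and 9, 254 and 0 in Drd2.

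Neuroglobin (Ngb, ENSMUSG00000021032, chromosome 12, 87097531 to 87102539, minus strand) stood at 52.4, 151 and 114 FPKM in Drd2 and at 4.30, 3.04 and 0 FPKM in PV, with PV 8 listed at 0. The lowest Drd2 library lay above the highest PV library, and the log2 difference was -5.14 ± 0.72 (SE), or -6.44 and -3.82 with pseudocounts of 0.1 and 5 FPKM. Within the Drd2 group Ngb did not follow the receptor gene that names it: Drd2 itself stood at 42.7, 55.0 and 7.74 FPKM, and Drd2 3, with the least of it, held more Ngb than Drd2 1. Ngb ranked 1214, 387 and 570 by FPKM among all genes of the Drd2 libraries.

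Cytoglobin (Cygb, ENSMUSG00000020810, chromosome 11, 116645595 to 116654313, minus strand) stood at 43.2, 47.2 and 22.4 FPKM in Drd2 and at 26.3, 2.11 and 25.1 FPKM in PV. The groups overlapped, since PV 6 and PV 8 lay above Drd2 3. The log2 difference was -1.50 ± 0.82 (SE), and -0.46 without PV 7. PV 7 also had the fewest genes at 1 FPKM or more, 8610 against 10293 to 12398 in the other libraries. An exon of Prcd, a gene on the opposite strand, overlaps an exon of Cygb by 201 bases, so without strand information reads there cannot be told apart. Prcd stood at 1.71, 10.9 and 2.62 FPKM in PV and 6.11, 2.02 and 2.43 FPKM in Drd2, highest in the library where Cygb was lowest.

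**Figure D1:**
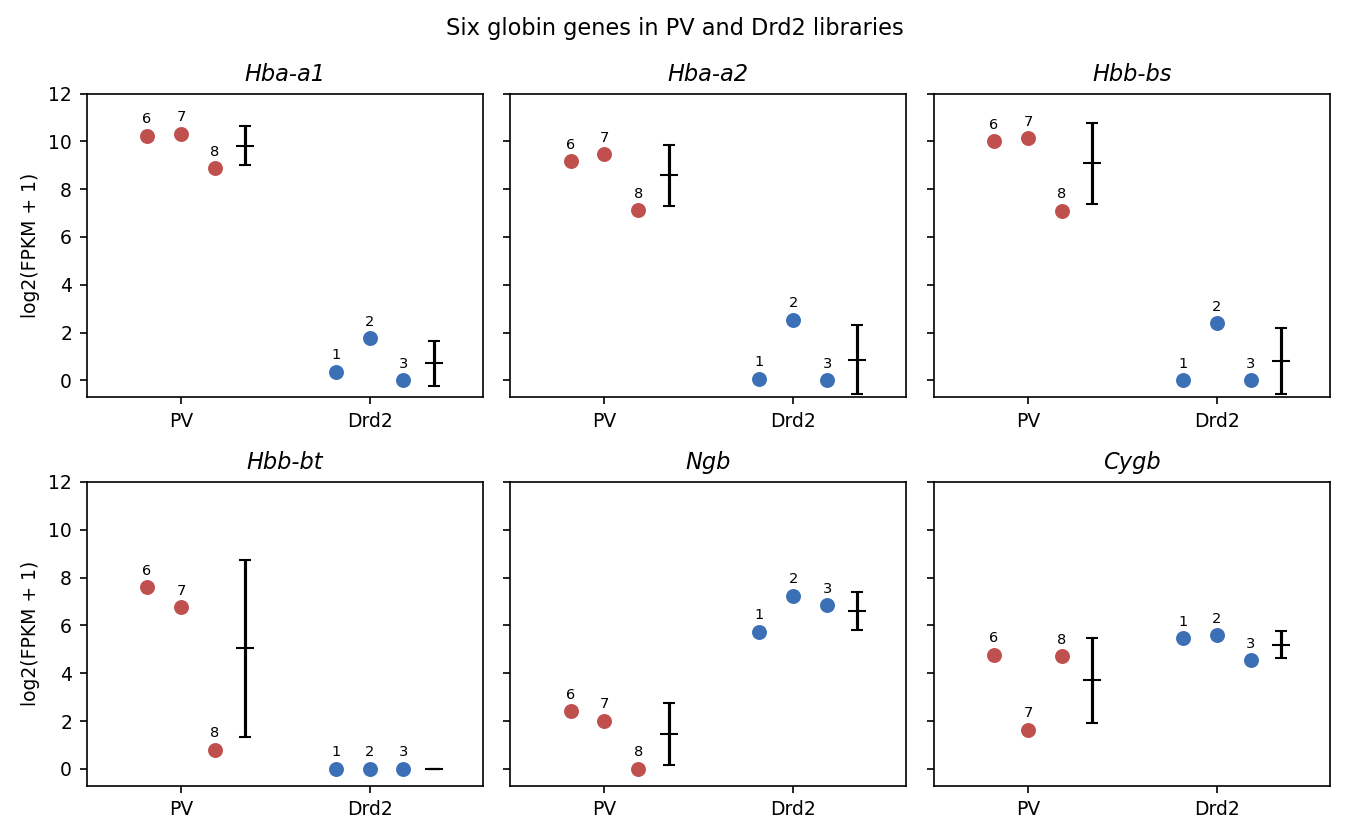
Levels of the 6 globin genes as log2(FPKM + 1), 1 point per library labelled by its number, with the mean and SD of each group as a black bar (n = 3 each). Hba-a1, Hba-a2 and Hbb-bs sit high in PV and low in Drd2, Hbb-bt is high in PV 6 and PV 7 only, Ngb is high in Drd2, and Cygb overlaps with PV 7 lowest at 2.11 FPKM.

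Of the 6 genes, 5 passed the filter of at least 1 FPKM in 3 or more libraries. Hba-a1, Hba-a2 and Hbb-bs reached 1 FPKM in the PV libraries and Drd2 2, and Ngb in the Drd2 libraries with PV 6 and PV 7. For each of these genes the libraries of its high group alone were enough to pass the filter. Hbb-bt, above 1 FPKM in 2 libraries, did not pass. In the limma fit over 11478 genes, 4 of the 5 were past the threshold of 0.05 after Benjamini-Hochberg adjustment, where 0.261% of all tested genes were. Of these, Hba-a1, Hba-a2 and Hbb-bs were higher in PV (background 0.0436%) and Ngb lower (background 0.218%). The groups did not overlap for the same 4, as for 19.0% of all tested genes. These calls come from the contrast the set was selected on, so they are no test of these genes. Nothing is read from the counts, from their backgrounds or from their changes with the settings below. Without Drd2 1, or without Drd2 3, Hba-a1 alone of the 4 was called. Hba-a1 alone was also called with a pseudocount of 0.1 FPKM. Ngb was not called without Drd2 2 or with TPM, and none of the 4 was called with no filter or with voom on recovered reads.

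The share of the copies within each haemoglobin chain differed between libraries. Hba-a1 made up 71.8% (95% Wilson interval 71.4% to 72.3%), 68.7% (68.3% to 69.2%) and 80.4% (79.7% to 81.1%) of alpha reads in the PV libraries. In Drd2 2 it made up 37.8% (30.6% to 45.6%), from 59 of 156 reads, and in Drd2 1 88.9% (56.5% to 98.0%), from 8 of 9 reads. Hba-a1 thus exceeded Hba-a2 in every PV library and in Drd2 1, and was below it in Drd2 2. Intervals treat each read as a separate draw and cover the counting of reads only. Reads copied by PCR are not separate molecules, so the error for molecules is not measured.

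Hbb-bs made up 85.4% (84.9% to 85.8%), 91.9% (91.5% to 92.2%) and 99.5% (99.2% to 99.7%) of beta reads in the PV libraries, and all 98 beta reads of Drd2 2 (lower bound 96.2%). In PV 8 the minor copy had 15 of 2977 beta reads. Alpha exceeded beta in each library that held both chains: the ratio of summed FPKM was 1.46, 1.63 and 4.43 in PV and 1.71 in Drd2 2. PV 8 stood apart from the other PV libraries in this ratio as well as in its beta copies.

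**Figure D2:**
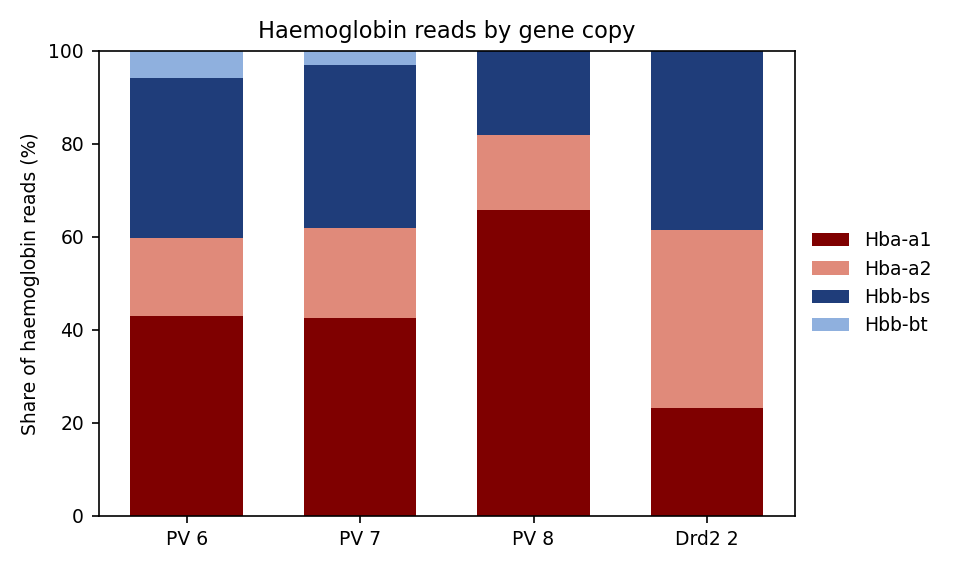
Share of haemoglobin reads (percent) from each of the 4 gene copies in the libraries with over 100 haemoglobin reads. Drd2 2 rests on 254 reads, against 16354 to 68131 in PV, and PV 8 has the largest share from Hba-a1 of the 4 libraries.

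The sources name neither the read length nor the treatment of reads that match several genes. Sequence shared between the copies was therefore measured, on annotated transcripts and not on the genome. Of windows of 50 bases along the transcript, 32.5% of Hba-a1, 13.1% of Hba-a2, 34.2% of Hbb-bs and 41.7% of Hbb-bt occurred in the transcripts of no other gene. At 150 bases the shares were 51.6%, 34.3%, 41.3% and 49.3%. Every Ngb window was private at each length, as were 93.2% to 97.5% of Cygb windows, the rest being shared with Prcd. The annotated Hba-a1 transcript has 196 bases before its coding sequence and that of Hba-a2 has 35. Its start, at 32283511, lies inside the Hba-a1 promoter window (32283422 to 32283671), which matched that of Hba-a2 at all 247 aligned bases. Windows there are private among transcripts only, and reads from there can match both copies in the genome. The shares therefore do not show how far reads can be assigned to an alpha copy.

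The number of private windows in Hba-a1 was 3.20, 2.59, 2.25 and 2.04 times that in Hba-a2 at 50, 75, 100 and 150 bases. Reads of Hba-a1 were 2.55, 2.20 and 4.10 times those of Hba-a2 in the PV libraries. The alpha window ratio depends on how far upstream the Hba-a1 transcript is annotated, so nothing is read from its nearness to the read ratios. For the beta pair the window ratio of Hbb-bs to Hbb-bt was 0.725 at each length. Their read ratio was 5.83, 11.3 and 197 in the PV libraries, on the other side of 1. The part of read assignment in these ratios was not tested.

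**Figure D3:**
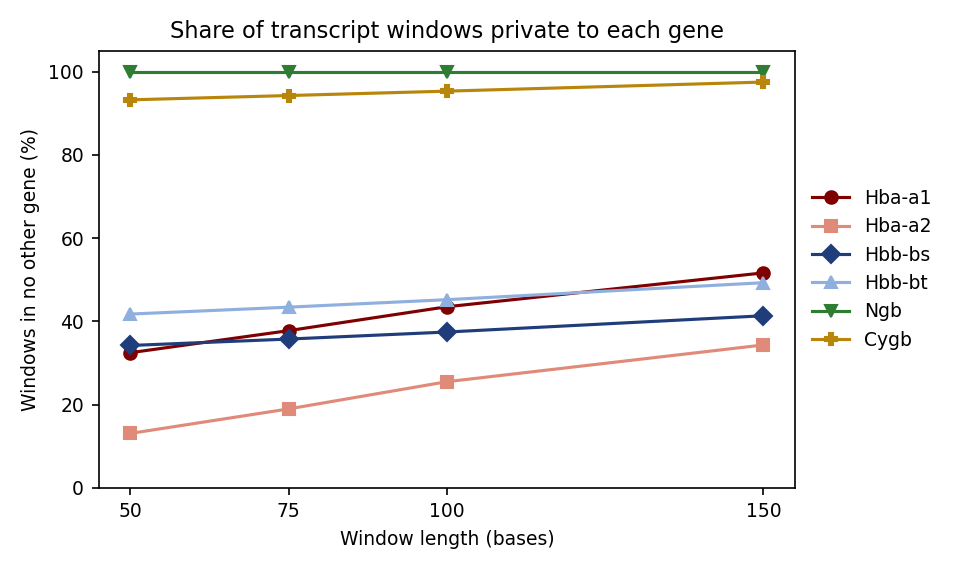
Share of transcript windows (percent, y axis) that occur in the transcripts of no other mouse gene, by window length in bases (x axis), for each of the 6 genes. Ngb lies at 100% and Cygb at 93.2% or above, while the haemoglobin copies lie between 13.1% and 51.6%.

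Other globin genes were scarce. The theta-globin gene Hbq1a reached 52.3 FPKM in PV 8 and 9.58 FPKM in Drd2 3 (896 and 138 reads) and was listed at 0 in the other 4 libraries. PV 6 and PV 7, with the most Hba-a1, thus had no Hbq1a. Its near copy Hbq1b reached 0.0973 FPKM in PV 8 and was listed at 0 elsewhere. The embryonic genes Hba-x, Hbb-y, Hbb-bh0, Hbb-bh1 and Hbb-bh2 were listed at 0 in all 6 libraries. Myoglobin (Mb), the oxygen store of muscle, stood at 5.18, 0 and 4.70 FPKM in Drd2 and 0.877, 0 and 0 FPKM in PV. Androglobin (Adgb) stood at 0.976, 0 and 0 FPKM in Drd2 and 0.146, 0 and 0 FPKM in PV. None of these 9 genes passed the filter, and Hbb-b1 and Hbb-b2 were not found by name.

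Markers of red blood cells and their precursors were mostly at 0 beside the haemoglobin. Of 15 markers 14 were found by name. Slc4a1 (the band 3 anion exchanger), Kel, Trim10, Trim58 and Hemgn, named after their values were seen, were among the 6 markers at 0 in all 6 libraries, and 3 of the 14 reached 1 FPKM in any. Alas2, the red cell enzyme that starts heme synthesis, stood at 3.56, 0.466 and 0 FPKM in PV and 0, 0.555 and 0 FPKM in Drd2. It was thus detected in 3 of the 4 libraries with the most haemoglobin, and summed haemoglobin was 842 and 6875 times Alas2 in PV 6 and PV 7 and 20.8 times in Drd2 2.

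Epb42, of the red cell membrane skeleton, reached 1.67 FPKM in PV 8 and was at 0 elsewhere. The erythropoietin receptor Epor, which other cells also express, stood at 14.6, 4.47 and 5.21 FPKM in PV and 29.2, 0 and 6.48 FPKM in Drd2. It was highest in Drd2 1, a library with 0.336 FPKM of haemoglobin, and it was the 1 marker of the list that passed the filter (log2 fold 0.41, limma adjusted p = 0.905). The list summed to 4.93 to 18.3 FPKM in PV and 0.555 to 30.1 FPKM in Drd2, so the groups overlapped. The part of red cells in the haemoglobin difference was not tested.

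Platelet genes were scattered over the libraries. The chemokine Ppbp stood at 4.34, 13.3 and 0 FPKM and Pf4, platelet factor 4, at 11.3, 0 and 0 FPKM in PV, both at 0 in every Drd2 library. Gp9 was at 6.62 FPKM in Drd2 2 and at 0 elsewhere, and Gp1bb was at 0 throughout. Itga2b, the 1 of 5 that passed the filter, had -0.52 as its log2 fold (limma adjusted p = 0.775). These markers summed to 18.1, 13.6 and 0.123 FPKM in PV and 0.592, 9.12 and 1.83 FPKM in Drd2. As for summed haemoglobin, PV 8 was the lowest PV library and Drd2 2 the highest Drd2 library, and the part of platelets in the haemoglobin result was not tested.

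The 6 neutrophil markers summed to 0 to 1.10 FPKM in PV and to 0 in Drd2 (S100a9 0.835 FPKM in PV 6, S100a8 0.356 FPKM in PV 8). The lymphocyte genes Cd79a and Cd79b were at 4.32 and 1.75 FPKM in Drd2 2, the Drd2 library with the most haemoglobin, and that list came to at most 0.0252 FPKM in PV. Endothelial markers summed to 2.84 to 5.83 FPKM in PV and 6.94 to 16.2 FPKM in Drd2, without overlap, with Cldn5 and Tie1 at 0 in all libraries. Egfl7 stood at 2.66, 2.76 and 1.69 FPKM in PV and 16.2, 14.5 and 2.92 FPKM in Drd2 (limma adjusted p = 0.413). Ly6c1 was at 3.05 FPKM in PV 8, was higher than that in Drd2 3 and was listed at 0 elsewhere. Egfl7 made up most of the sum in Drd2 1 and Drd2 2, while Esam was at 2.74 FPKM in PV 6 and Kdr at 0.848 FPKM in PV 8, both at 0 in every Drd2 library (named after their values were seen).

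Pericyte and smooth muscle markers, of a cell class known for Cygb, summed to 0.597 to 11.9 FPKM in PV and 0.678 to 2.73 FPKM in Drd2. Notch3 stood at 0.954, 0.563 and 1.89 FPKM in PV and 0.421, 1.52 and 0.659 FPKM in Drd2, and Acta2 reached 4.58 FPKM in PV 8. Fibroblast markers came to at most 1.98 FPKM in any library, with Dcn at most 1.79 FPKM, Pdgfra at most 1.13 FPKM and Lum at 0. The fibroblast sum was 0, 0.0800 and 0.163 FPKM in Drd2, where Drd2 1 and Drd2 2 had the most Cygb. In PV it was 1.98, 0 and 1.81 FPKM, lowest in PV 7 as Cygb was. The sum of pericyte and smooth muscle markers was also lowest in PV 7. The part of these cell classes in Cygb levels was not tested.

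Microglial transcripts were present in all 6 libraries. The 10 markers summed to 1393, 1002 and 448 FPKM in PV and to 23.9, 92.9 and 3689 FPKM in Drd2, so each PV library lay above Drd2 1 and Drd2 2, and Drd2 3, with the highest sum, had no haemoglobin read. Of the 10, 9 had a log2 fold above 0, none passed in limma and 1 had an unadjusted p under 0.05 (P2ry12 log2 fold 2.88, adjusted p = 0.329; Aif1 3.04, 0.446). Ctss and C1qb had log2 folds of 3.24 and 2.01 (limma adjusted p = 0.540 and 0.615). The median of the list was 1.65 where that of all genes was -0.28. Genes of mitochondrial DNA made up 23.0%, 31.3% and 9.62% of the FPKM total in PV, the same order as summed haemoglobin, and 3.74% to 5.20% in Drd2. The part of either in the haemoglobin difference was not tested.

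**Figure D4:**
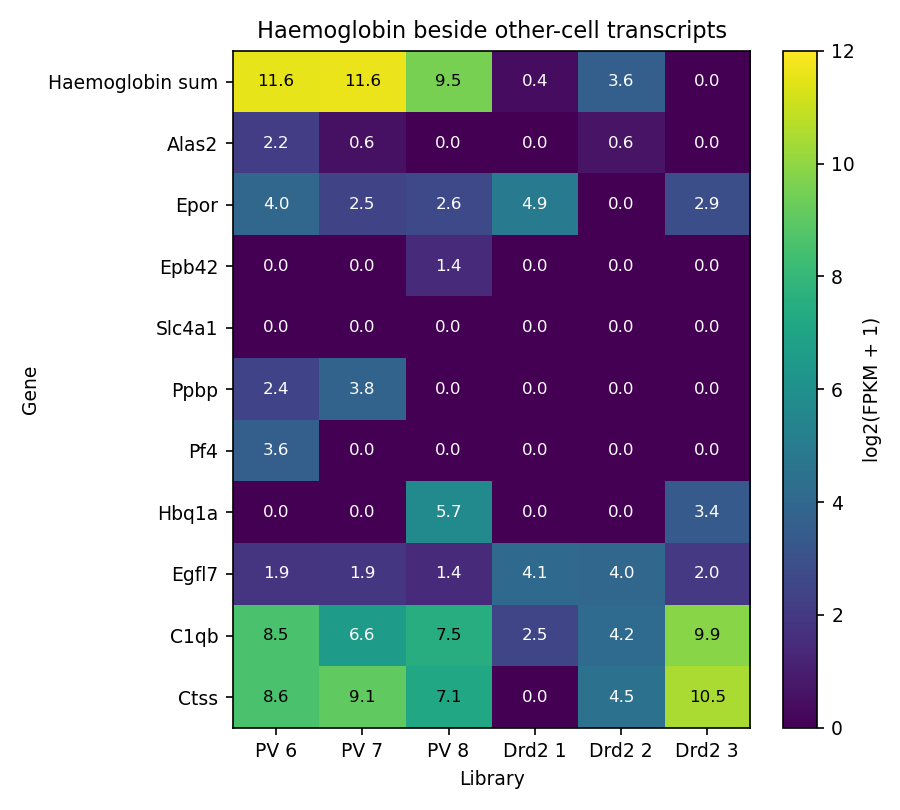
Heat map of log2(FPKM + 1) per library (columns) for summed haemoglobin, Hbq1a and transcripts of other cell types (rows), with the value written in each cell. Slc4a1 is at 0 everywhere, and Ppbp appears in PV 6 and PV 7.

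Genes that control globins, make and break down heme, handle iron and sense oxygen were compared between the classes in the same fit. Over all lists, marker lists included, 187 genes were found by name and 96 passed the filter. None was past the threshold in limma, with 15 at an unadjusted p under 0.05, where 1468 of all 11478 tested genes were, and 1 passed (Ldha) with voom on recovered reads. The median of all genes, -0.28, ranged from -0.50 with TPM to 0.05 with quantile normalization, so folds near 0 change sign with the scaling. Of all tested genes 38.4% had a log2 fold above 0 and the rest lay below, which is the background for the direction counts of the lists.

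Of 11 transcription factors and cofactors of globin control, 6 reached 1 FPKM in a library. Gata1, Klf1, Tal1 and Gfi1b were the 4 listed at 0 in all libraries. Nfe2 stood at 2.90, 0 and 0 FPKM in PV and at 0 in every Drd2 library. These 5 were named after their values were seen. The 4 that passed the filter were Ldb1, a bridging cofactor, Lmo2, an adaptor of the Gata1 complex, and the fetal globin repressors Bcl11a and Zbtb7a. Their log2 folds were -0.83, 1.11, 0.36 and 0.26, and none passed (limma adjusted p = 0.586 to 0.879). Lmo2 stood at 11.1, 6.39 and 0 FPKM in PV and 0, 0.154 and 6.74 FPKM in Drd2, with overlap.

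Of 13 tested genes of heme synthesis, 3 had a log2 fold above 0 and 10 below, and none passed. The median was -0.59, against -0.28 for all genes. Urod, an enzyme of the middle of the pathway, stood at 24.8, 19.8 and 9.72 FPKM in PV and 47.6, 46.5 and 71.8 FPKM in Drd2 (log2 fold -1.62 ± 0.48 SE, limma adjusted p = 0.196). Tmem14c and Slc25a39, of the mitochondrial membrane, had log2 folds of -1.08 and -1.66 (adjusted p = 0.286 and 0.293). Uros, the enzyme before Urod, stood at 14.2, 39.8 and 31.7 FPKM in PV and 13.5, 12.4 and 6.71 FPKM in Drd2 (log2 fold 1.25 ± 0.55 SE, limma adjusted p = 0.382). The list summed to 149 to 311 FPKM in PV and 389 to 497 FPKM in Drd2, without overlap. Any link of this sum to the haemoglobin difference was not tested.

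Of 5 tested heme breakdown genes none passed (median -0.37). Hmox1, the inducible heme oxygenase, stood at 6.65, 1.01 and 1.53 FPKM in Drd2 and read 0 in PV 6, PV 7 and PV 8 (limma adjusted p = 0.269). Hmox2, the constitutive form, had a log2 fold of -0.47, Lrp1, which takes up heme bound to hemopexin, of -0.37 and Blvra, a biliverdin reductase, of -0.09 (limma adjusted p = 0.755 to 0.961).

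Of 9 tested iron genes none passed and the median was 0.08. The iron importer Slc11a2 had a log2 fold of -1.47 (limma adjusted p = 0.466), ferritin light chain Ftl1 of 0.64 (0.521), and the iron-regulatory proteins Ireb2 and Aco1 of 0.63 (0.726) and -0.69 (0.741). Slc11a2 stood at 2.36, 0.0455 and 2.36 FPKM in PV and 6.41, 9.44 and 2.26 FPKM in Drd2, with PV 7 lowest.

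Of 17 tested genes of oxygen sensing none passed and the median was -0.14. Ldha, a lactate dehydrogenase subunit, stood at 46.5, 48.5 and 55.8 FPKM in PV and 186, 201 and 258 FPKM in Drd2 (log2 fold -2.06 ± 0.35 SE, limma adjusted p = 0.0501). Ndrg1, a gene raised by low oxygen in many cells, stood at 0.641, 0 and 0.00535 FPKM in PV and 11.7, 10.9 and 7.77 FPKM in Drd2 (log2 fold -3.22 ± 0.63 SE, limma adjusted p = 0.0705). The groups overlapped for neither, against 19.0% of all tested genes without overlap. Ldha passed without PV 7, and Ndrg1 passed with no intensity trend. Egln1, an oxygen sensor, and Epas1, a hypoxia-inducible factor, had log2 folds of -1.45 and 1.25 (limma adjusted p = 0.492 and 0.526).

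Of 17 tested globin reductases and antioxidant enzymes, 5 had a log2 fold above 0 and 12 below, and none passed. The median was -0.32, near the -0.28 of all genes. Gpx3, a secreted glutathione peroxidase, stood at 41.8, 60.1 and 73.6 FPKM in PV and 309, 212 and 116 FPKM in Drd2 (log2 fold -1.77 ± 0.45 SE, limma adjusted p = 0.149). Prdx1, a peroxiredoxin, had a log2 fold of -1.90 (adjusted p = 0.179) and Prdx3, its mitochondrial relative, of 0.93 (0.442). Cyb5r3, which reduces oxidized haemoglobin, stood at 20.7, 0.445 and 45.6 FPKM in PV and 49.8, 56.3 and 34.9 FPKM in Drd2 (log2 fold -2.05 ± 1.08 SE, limma adjusted p = 0.462). Like Cygb, Cyb5r3 was lowest in PV 7.

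Transcripts of reticulocytes that other cells also express numbered 10 tested, 4 with a log2 fold above 0 and none past the threshold (median -0.22). Mkrn1 had a log2 fold of 1.21 (limma adjusted p = 0.455), Prdx2 of -0.68 (0.489) and Sptb, the spectrin of red cells, of 0.99 (0.632).

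**Figure D5:**
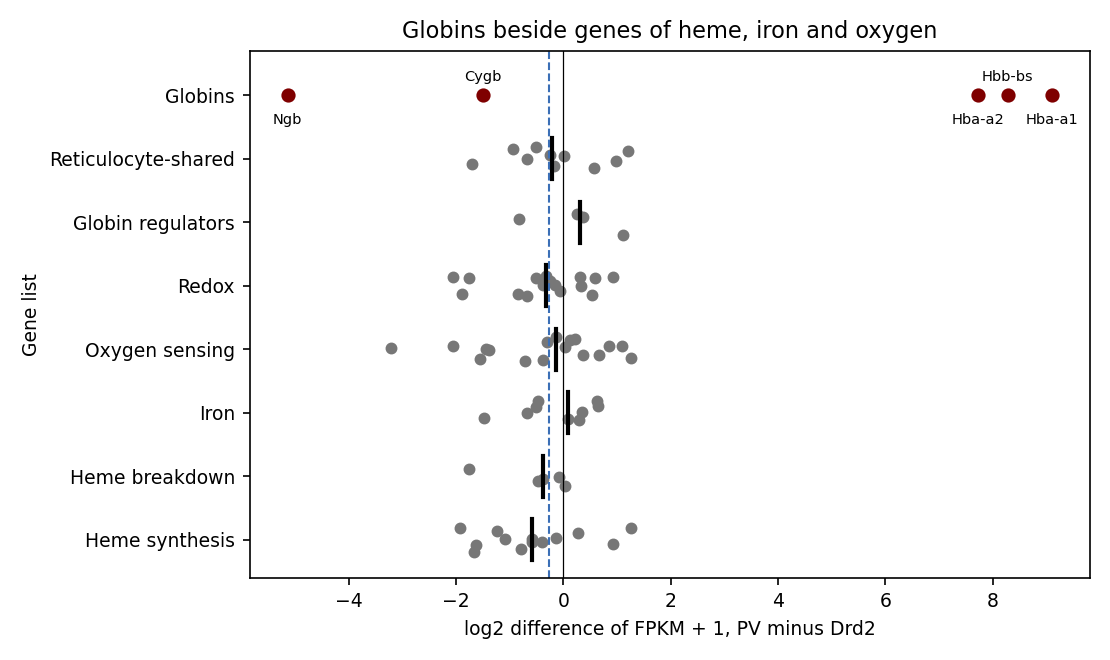
Difference in log2(FPKM + 1), PV minus Drd2, for the tested genes (points) of 7 lists, with the list median as a black bar and the median of all genes, -0.28, as a dashed line. The globins, in red, span -5.14 to 9.09, while the genes of these 7 lists lie between -3.22 and 1.25.

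Both classes carried neuronal RNA, with the glutamate transporter Slc17a6 at 114, 132 and 144 FPKM in PV and 108, 123 and 144 FPKM in Drd2 (chosen after its values were seen). Pvalb stood at 349, 482 and 563 FPKM in PV and 10.4, 22.5 and 99.5 FPKM in Drd2. Of 6 neuronal genes none passed in limma (Snap25 log2 fold 1.41, adjusted p = 0.196; Tubb3 -1.49, 0.332). Of 4 tested mammillary factors none passed in limma (Nkx2-4 log2 fold -2.41, adjusted p = 0.179; Foxb1 -1.94, 0.254). Stmn2, Rbfox3, Lhx5 and Lhx1 had log2 folds of -0.43, -0.56, -0.54 and -0.34.

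Likeness between genes was measured as Pearson r of log2(FPKM + 1) over the 6 libraries. It was 0.992 between Hba-a1 and Hba-a2, 0.989 between Hba-a1 and Hbb-bs, -0.90 between Hba-a1 and Ngb, -0.58 between Hba-a1 and Cygb and 0.457 between Ngb and Cygb. These values describe 6 libraries in 2 groups, share the group difference and each library's depth, and carry no p.

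The genes most like Hba-a1 were the heavy neurofilament chain Nefh (r = 0.989), the syntrophin Sntg2 (0.988), the noncoding RNA Miat (0.988), AW047730 (0.986) and Thg1l (0.984). Nefh stood at 79.6, 74.9 and 82.9 FPKM in PV and 12.5, 14.0 and 11.7 FPKM in Drd2, without the drop in PV 8 that Hba-a1 had. The genes most like Ngb were the proteasome subunit Psmd7 (0.987), Vps39 (0.984), the acid-sensing ion channel Asic2 (0.983), Pon2 (0.982) and Hars2 (0.978). Asic2 stood at 9.22, 14.6 and 20.6 FPKM in Drd2 and 2.75, 2.13 and 0.0165 FPKM in PV, lowest in PV 8 as Ngb was.

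The genes most like Cygb were the kinase Fyn (0.998), Cox10 (0.998), Sdr39u1 (0.995), Arf5 (0.995) and Rnf44 (0.994). Fyn stood at 31.7, 31.3 and 18.3 FPKM in Drd2 and 21.3, 1.73 and 19.4 FPKM in PV. All 5 were lowest in PV 7, as Cygb was.

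The ratio of Ngb to Cygb on the FPKM scale was 1.21, 3.20 and 5.08 in Drd2 and 0.163, 1.44 and 0 in PV. PV 7 lay within the Drd2 range, with low Cygb. The sum of Ngb and Cygb was 95.6, 198 and 136 FPKM in Drd2 and 30.6, 5.15 and 25.1 FPKM in PV, without overlap.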

How the data were processed

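Libraries of aspirated neurons were made with a SMARTER kit, per the labels' protocols. FPKM values were computed by the authors; STAR and the builds hg38, GRCh38 and mm10 appear without roles or versions per the submitters' processing notes. Quantifier, annotation and strand setting: not given in the sources used here. Members, lists and tests were chosen with earlier results of these data known. Log2(FPKM + 1) was fitted with limma 3.58.1 (R 4.3.3, intensity trend, 2-sided) over 11478 genes reaching 1 FPKM in 3 or more of 6 libraries, with Benjamini-Hochberg adjustment at 0.05. The pseudocount understates folds of low genes. Reads were recovered from FPKM and GENCODE M21 exon lengths: 97.9% to 98.8% of values up to 20 reads lay within 0.01 of a whole number, and a read per kilobase was worth 0.0296 to 0.0420 FPKM. An exact 0 can be a failed estimate. The fit was tested on simulated data.

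Named were all members and other globins; per list, called genes and up to 4 further ones with the smallest p, or the 2 with the highest mean where fewer than 2 passed the filter; and the 5 genes with the highest r to Hba-a1, Ngb and Cygb. Any other name was chosen after its values were seen. Some genes of the lists are not reported here. Promoters, found for 4 of the 6 members, came from RefSeq (GRCm38.p6). Alternatives were other pseudocounts, filters, scalings and variance models and leaving out each library.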

Additional observations from a re-analysis of the deposited data

How the results depend on the processing

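No paired analysis was possible because the groups share no replicate numbers. The fit called 5 genes higher and 25 lower in PV, no listed gene, and a summed haemoglobin difference of 9.56 (log2). A pseudocount of 0.1 FPKM gave 1 higher, 3 lower and 11.24, and one of 5 FPKM gave 13 higher, 55 lower and 1 listed gene (Ldha). With no filter 0 were higher and 0 lower, and a filter at 5 FPKM called 1 listed gene (Ldha). TPM gave 3 higher, quantile normalization 22 higher and 46 lower, and no intensity trend 40 lower and 1 listed gene (Ndrg1). Leaving out each library gave 1 to 7 higher, 0 to 52 lower, 0 to 1 listed genes and 8.88 to 10.70 for haemoglobin: 0 were lower without Drd2 1, Drd2 2 or Drd2 3, 52 without PV 6 and 13 without PV 8. Chosen after seeing the data, leaving out PV 7 with Drd2 3 gave 13 lower, and voom on recovered reads 15 lower and 1 listed gene (Ldha). The cause was not tested. No fold of a member changed sign. With 3 libraries a group and an unknown number of cells in each, the values limit what can be said of single cells.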
